A study of Mus musculus with 8 samples.

Results

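The genes described here are 8 genes of the estrogen receptor and of luminal hormone-sensing cells: Esr1, Pgr, Greb1, Foxa1, Gata3, Prlr, Xbp1 and Cited1. Open chromatin around them was measured by ATAC-seq, in which the Tn5 enzyme cuts accessible DNA and places with many cuts are listed as peaks. A peak was assigned to a gene when it overlapped the gene body or lay within 20 kb of one of its transcription start sites (TSSs) in GENCODE M21, an area called the neighbourhood below. Joining overlapping or adjoining peaks across libraries gave 183173 regions, of which 101 lay in the neighbourhoods of the 8 genes.

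The cells came from cultured lines grown out of mouse mammary tumours that were driven by the Polyomavirus middle T oncogene (PyMT), which all 8 libraries carry. The strain was given as FBV/N, and the cells were kept in DMEM with serum and antibiotics. Cells without (WT) or with deletion of the Hippo pathway kinase Lats1 in the epithelium (Lats1-CKO) were sorted into a luminal population, EpCAM-high and CD49f-high, and a basal-like population, EpCAM-low and CD49f-high. Each of the 4 groups had 2 libraries: BM1 and BM5 for WT luminal, BM2 and BM6 for WT basal-like, BM3 and BM7 for Lats1-CKO luminal, and BM4 and BM8 for Lats1-CKO basal-like. The sorted cells were expanded in culture before the assay, so each library is a cultured population and not a fresh tumour. The Cre driver and the line behind each library were not given in the sources used here. The paper gave an age for the mice whose tumours it profiled directly, but none for the animals behind the lines. The study described the 2 libraries of a group as biological replicates, and nothing in the labels says whether they came from separate lines.

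Estrogen receptor α, the product of Esr1, is a nuclear receptor that binds DNA as a dimer, at paired short elements or through other factors, and its classical targets include Pgr and Greb1. In the normal mammary gland it is made by a subset of luminal cells, together with the pioneer factor Foxa1, the luminal regulator Gata3, the progesterone receptor and the prolactin receptor. PyMT-driven mouse tumours are known for losing estrogen receptor as they progress.

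The libraries differed in their number of peaks, from 51497 to 99022 in 7 of them and 14753 in BM3. Values are therefore given as peaks per 10000 peaks of the library, called the peak share, and as the percentile of a peak's score within its library, where 100 is the highest score. A percentile depends on the length of the list, which was 51497 to 72685 peaks in WT libraries and 86279 to 99022 in BM7, BM4 and BM8. A count of 0 peaks allowed a share of up to 2.03 per 10000 in BM3 and of up to 0.303 to 0.583 in the other libraries, for counting error only. Of the 7 luminal marker genes listed for the check (Krt8, Krt18, Krt19, Epcam, Cldn3, Cldn4, Cdh1), 6 to 7 showed a TSS peak (within 1 kb) in the WT luminal libraries, 5 to 6 in the WT basal-like libraries, 5 in BM3, 6 in BM7 and 2 in both Lats1-CKO basal-like libraries. Of the 7 basal-like markers, 3 had such a peak in each WT library, 1 in BM3, 4 in BM7 and BM4 and 2 in BM8, and no library had one at Trp63. Krt18, Epcam, Cldn3 and Cdh1 had one in both WT libraries labelled basal-like and in neither Lats1-CKO basal-like library. Krt19 had the reverse pattern. The paper reported that sorted WT basal-like cells turned partly luminal over passages in culture. How far the WT basal-like cells had done so by the assay was not tested. The summed peak share of the luminal markers was 7.14 to 7.43 per 10000 in WT luminal, 7.24 to 7.57 in WT basal-like, 14.9 in BM3, 5.99 in BM7 and 3.64 to 4.06 in Lats1-CKO basal-like. Of the fibroblast, immune and endothelial markers, 0 to 5 of 6, 0 to 4 of 6 and 0 to 2 of 5 showed a TSS peak, and Col3a1, Cd3e, Itgam, Cdh5 and Emcn had none in any library. BM4 stood apart with 5 of the 6 fibroblast markers and a summed share of 5.22, against 2.03 to 3.30 in the other libraries. The summed share of the immune markers was 3.10 to 4.07 in the Lats1-CKO and 2.21 to 2.56 in the WT libraries. The 4.07 was that of BM3, the shortest list, in which 0 of the 6 immune markers had a TSS peak. How often other sets of 6 genes are separate in this way was not counted. The summed share of the endothelial markers was 0.678 to 2.67 in the Lats1-CKO and 1.36 to 1.99 in the WT libraries. The part of other cells in the values below was not tested. Peak lists hold no reads over the deleted exons, so the deletion itself could not be checked here.

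The 101 regions lay mostly inside the genes. In all, 63 were intronic, 14 overlapped an exon, 16 lay upstream and 8 downstream. Their median width was 130 bp, against 153 bp over all merged regions, and the median GC content of their central 300 bp was 48.3% in both sets. Esr1, the longest of the genes at 394022 bp, had 37 of the regions, Greb1 24, Prlr 12, Gata3 11, Xbp1 10, Pgr 3, and Foxa1 and Cited1 2 each. In 7 cases a region also lay within 1 kb of a TSS of another protein-coding gene, namely 2 near Greb1 (E2f6), 4 near Gata3 (4930412O13Rik and 9230102O04Rik) and 1 near Xbp1 (Ccdc117).

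The central 300 bp of 5 regions are shown on the strand of their gene, read from the GRCm38.p6 RefSeq assembly (mm10). They were chosen after their values were seen, because the descriptions below turn on them. The first lay upstream of Esr1 and was found in 3 WT libraries, the second was the intronic Esr1 region shared by most libraries, the third held the Greb1 match to an estrogen response element that was seen in most libraries, the fourth was a strong region near the 3′ end of Gata3, and the last was the strongest intronic region of Prlr. Capitals mark matches on either strand to 6 motifs. These were the estrogen response element (the inverted sites GGTCA and TGACC with 3 bases between, at most 1 mismatch), the FOXA motif TGTTTAC, the motif of the GATA factors, spelled AGATAA, the AP-1 motif TGANTCA, the TEAD motif GGAATG and the RUNX motif TGTGGTT. None of them contains another.

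Esr1, chr10:4610323-4610622, + strand: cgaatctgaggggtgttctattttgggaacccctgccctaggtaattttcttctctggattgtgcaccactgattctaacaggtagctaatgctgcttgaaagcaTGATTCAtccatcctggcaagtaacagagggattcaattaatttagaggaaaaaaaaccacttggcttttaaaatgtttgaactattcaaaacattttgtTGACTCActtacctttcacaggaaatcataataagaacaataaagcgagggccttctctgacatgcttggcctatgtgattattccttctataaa
Esr1, chr10:4621013-4621312, + strand: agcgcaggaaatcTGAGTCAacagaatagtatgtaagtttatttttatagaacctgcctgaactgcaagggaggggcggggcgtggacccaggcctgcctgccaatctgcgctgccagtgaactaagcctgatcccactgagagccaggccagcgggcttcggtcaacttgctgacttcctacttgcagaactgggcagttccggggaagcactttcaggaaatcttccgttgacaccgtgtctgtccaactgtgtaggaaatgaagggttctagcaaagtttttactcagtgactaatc
Greb1, chr12:16790478-16790777, - strand: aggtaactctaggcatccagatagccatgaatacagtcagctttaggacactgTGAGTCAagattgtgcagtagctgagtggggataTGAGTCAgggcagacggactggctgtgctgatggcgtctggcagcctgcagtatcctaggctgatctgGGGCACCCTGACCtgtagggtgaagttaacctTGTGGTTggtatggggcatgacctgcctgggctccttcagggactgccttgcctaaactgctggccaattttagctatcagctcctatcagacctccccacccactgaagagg
Gata3, chr2:9860797-9861096, - strand: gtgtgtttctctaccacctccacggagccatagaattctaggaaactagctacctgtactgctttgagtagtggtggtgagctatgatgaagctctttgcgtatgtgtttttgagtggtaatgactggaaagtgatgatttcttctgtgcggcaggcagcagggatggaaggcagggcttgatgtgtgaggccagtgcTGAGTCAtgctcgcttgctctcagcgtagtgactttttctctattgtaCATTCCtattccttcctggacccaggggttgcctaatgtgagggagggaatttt
Prlr, chr15:10192325-10192624, + strand: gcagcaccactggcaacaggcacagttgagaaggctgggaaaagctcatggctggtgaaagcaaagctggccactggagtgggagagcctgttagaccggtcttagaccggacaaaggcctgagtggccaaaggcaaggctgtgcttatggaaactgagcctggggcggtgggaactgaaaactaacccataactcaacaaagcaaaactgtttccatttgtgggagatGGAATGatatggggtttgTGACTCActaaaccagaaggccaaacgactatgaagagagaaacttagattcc

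All 5 sequences held a match to AP-1, the motif of Fos and Jun factors. The upstream Esr1 sequence held 2, TGATTCA from base 106 and TGACTCA from base 206. The Greb1 sequence held 2 AP-1 matches, a RUNX match and the response element GGGCACCCTGACC from base 156, with 1 mismatch. The Gata3 and Prlr sequences held a TEAD match beside the AP-1 match; TEAD proteins are the DNA-binding partners of the Hippo effectors Yap and Taz. These matches describe letters and do not show that a factor was bound.

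Over all 101 regions, an estrogen response element with at most 1 mismatch was found in the central 300 bp of 4 (3.96%), against 1.12% of all 183173 merged regions. Greb1 held 3 of them and Pgr 1, and 3 of the 4 were in a single library each. The exception was the Greb1 region shown above, which had a peak in 6 libraries. Without a mismatch the element was found in 0 of the 101 regions and in 0.0841% of all regions, and with at most 2 mismatches in 12.9% and 12.4%. AP-1 was matched in 34.7% of the 101 regions against 29.5% of all. FOXA was matched in 5.94% against 4.54%, and GATA in 9.90% against 9.92%. TEAD was matched in 15.8% against 21.0%, and RUNX in 5.94% against 10.4%.

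Peaks within 1 kb of a TSS divided the 8 genes. Xbp1, a transcription factor of the unfolded protein response that is rich in estrogen receptor-positive cells, had a peak at its start in every library, with score percentiles of 89.3 and 92.5 in WT luminal, 81.6 and 83.5 in WT basal-like, 81.6 and 97.5 in Lats1-CKO luminal and 91.5 and 98.8 in Lats1-CKO basal-like. Gata3 also had one in every library, at percentiles from 69.4 in BM3 to 97.5 in BM7. Outside BM5, the Gata3 value came from an intronic region 10294 bases after the gene start, near an internal TSS. In all libraries but BM5, where Esr1 was marginally above Gata3, these 2 genes had the highest start-site percentiles of the 8.

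Foxa1, which opens chromatin for the estrogen receptor, had one in 5 libraries. Its percentile was 87.2 and 69.2 in WT luminal, 72.4 in BM2, 74.0 in BM7 and 5.12 in BM4, with none in BM6, BM3 and BM8. The Esr1 value was 15.4 and 82.7 in WT luminal, 29.3 in BM2, 32.7 in BM7, 69.4 in BM4 and 44.0 in BM8. Prlr had one in 6 libraries, at percentiles of 8.20 to 85.9, and none in BM3 and BM4. Most of these Prlr values came from internal TSSs. That of BM1 lay 71198 bases after the gene start, and those of BM5, BM6, BM7 and BM8 lay 136715 bases after it. Within 1 kb of a TSS near the gene start, only BM1 and BM2 had a Prlr peak. Cited1, a coactivator that binds the estrogen receptor, had one in 4 libraries, at 18.8 in BM1, 10.9 in BM2, 63.6 in BM7 and 35.4 in BM8. The libraries of a group often differed at these start sites, as BM2 and BM6 did at Foxa1, Esr1 and Cited1. Pgr and Greb1 had no peak within 1 kb of any of their TSSs in any library, although both had peaks elsewhere. The RefSeq promoter of Greb1 (250 bases before to 50 after the start) at the start of the full gene had 19 CpG dinucleotides and that of Pgr 6, against a median of 7 over 32851 promoters, and neither overlapped a peak. The same held for the RefSeq promoters of Foxa1 and Prlr and for some of those of Esr1 and Cited1, although these genes had peaks within 1 kb of a TSS. Across libraries, 19.5% (BM3) to 35.3% (BM7) of all promoters overlapped one. The number of the 8 genes with a peak within 1 kb was 6 and 5 in WT luminal, 6 and 3 in WT basal-like, 2 and 6 in Lats1-CKO luminal and 4 and 5 in Lats1-CKO basal-like. Of all protein-coding genes, 57.2% and 50.5%, 55.4% and 52.1%, 34.3% and 58.8%, and 56.7% and 57.8% had one in the same libraries.

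**Figure D1:**
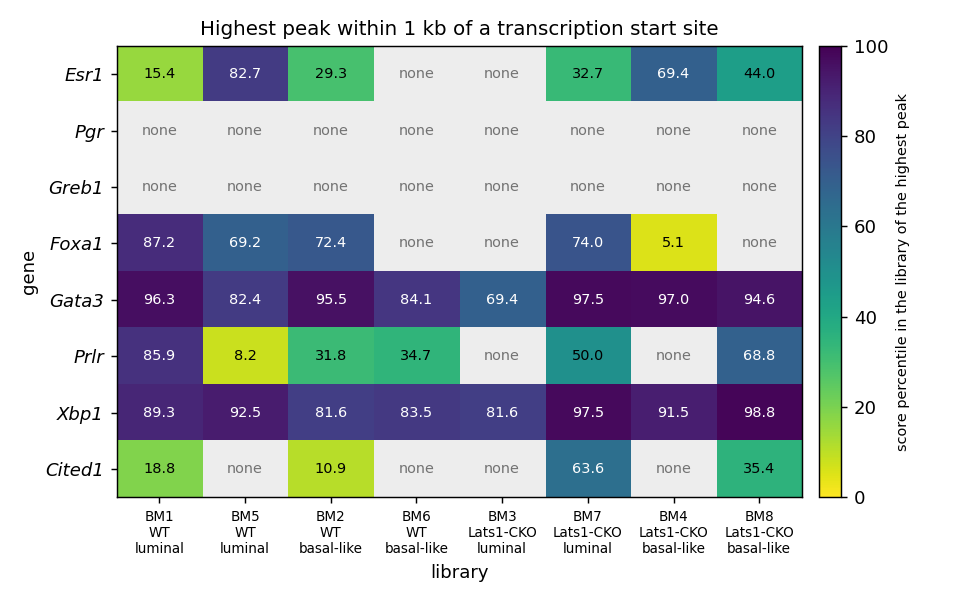
Score percentile, within the library, of the highest peak within 1 kb of a TSS of each gene (rows) in each library (columns), with "none" where the library had no such peak. Xbp1 and Gata3 have a value in all 8 libraries, and Pgr and Greb1 have none.

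Few regions near the 8 genes were open in every library. A peak was present in all 8 libraries in 2 of 101 regions, 1 at Gata3 and 1 at the start of Xbp1, against 5.95% of all merged regions. With BM3 set aside, 8 of the 101 regions had a peak in all of the remaining 7 libraries (4 at Gata3, 2 at Greb1, 1 at Esr1 and 1 at Xbp1), against 12.6% of all regions. In 39 of the 101 a single library had the peak, against 44.5% of all. No region near the 8 genes had a peak in all 4 WT libraries and in no Lats1-CKO library, a pattern held by 0.0633% of all regions.

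Peaks near all 8 genes together numbered 45 and 30 in WT luminal, 37 and 24 in WT basal-like, 4 and 44 in Lats1-CKO luminal and 50 and 43 in Lats1-CKO basal-like. As a peak share this was 6.19 and 5.10, then 5.25 and 4.66, then 2.71 and 4.71, then 5.80 and 4.34. The mean of the Lats1-CKO libraries was 0.913 per 10000 below that of the WT libraries, and the 4 and 4 libraries overlapped. Without BM3 the difference was -0.353, and with the 10000 top-scoring peaks it was 0.25. Those 10000 were most of the list of BM3 (14753) but a small part of that of BM8 (99022). They left only 3 to 5 peaks a library near the 8 genes, so values from this setting rest on very few peaks. The mean of the basal-like libraries was 0.334 above that of the luminal libraries and also overlapped. It was -0.321 without BM3 and -0.186 with 5 kb around the TSSs. No test was made of these sums, since the genes were chosen with earlier results known.

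Each gene was then compared between genotypes and between populations by a two-sided exact permutation test of the peak share, 4 libraries against 4, for all 19247 protein-coding genes with a peak. The smallest p this design gives is 0.0286, and 0 genes passed a Benjamini-Hochberg adjusted p of 0.05 in either comparison. At an unadjusted p below 0.05 there were 712 genes by genotype and 372 by population. Over all genes the median difference was 0.0236 per 10000 (Lats1-CKO minus WT) and -0.0242 (basal-like minus luminal), and over the 8 genes it was -0.0577 and 0.0521. Without BM3 these medians were -0.0212 and 0.00600 over all genes and -0.00642 and 0.00625 over the 8, so that their opposite signs rested on that library. The groups were called separate when no library of the one reached the range of the other. This held with Lats1-CKO higher for 1.3% and lower for 2.4% of all genes, and for 0 and 1 of the 8 genes. With basal-like higher it held for 1.02% and lower for 0.914% of all genes, and for 0 of the 8 genes both ways.

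**Figure D2:**
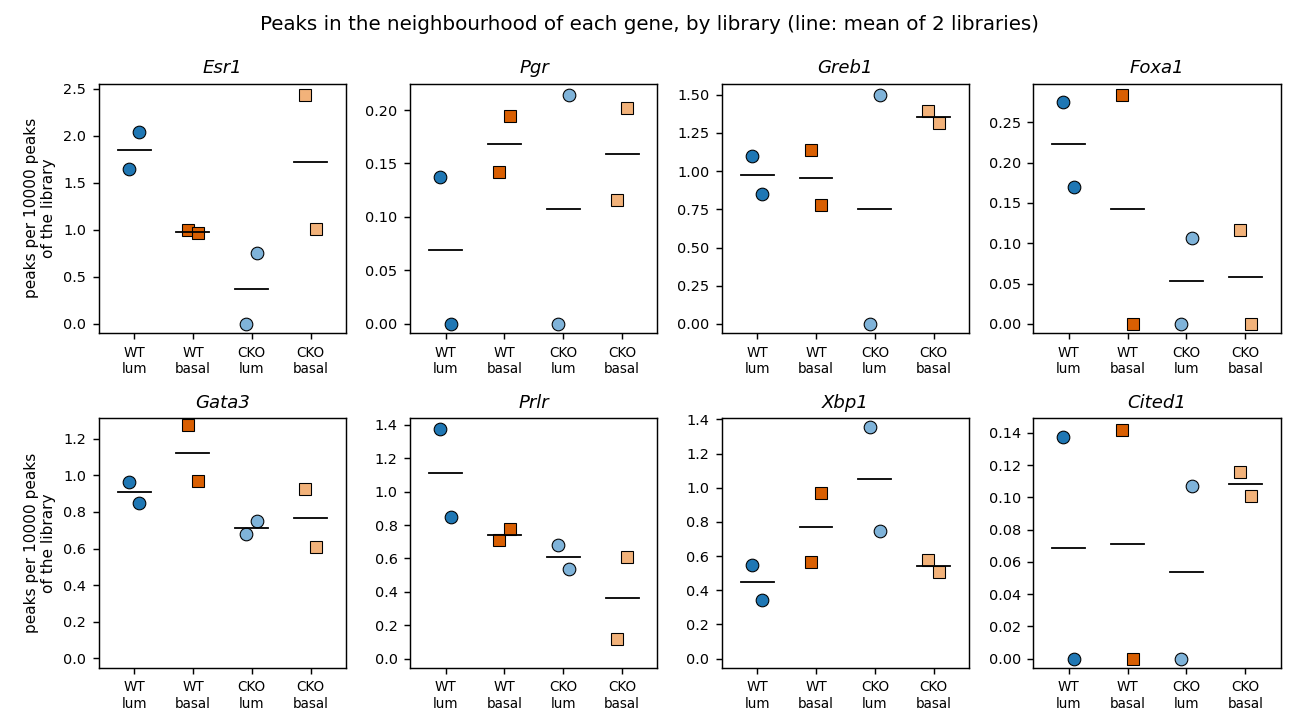
Peaks per 10000 peaks of the library in the neighbourhood of each gene (vertical axis, its own scale for each gene), by group. Each point is 1 library and each line the mean of the 2 libraries of a group. All 4 Lats1-CKO points lie below all 4 WT points for Prlr, and BM3 lies at 0 for Esr1, Pgr, Greb1, Foxa1 and Cited1.

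Prlr, the receptor through which prolactin drives alveolar growth and milk genes, was the 1 gene whose genotypes did not overlap in peak share. It had 10 and 5 peaks in WT luminal, 5 and 4 in WT basal-like, 1 and 5 in Lats1-CKO luminal and 1 and 6 in Lats1-CKO basal-like. Its peak share was 1.38 and 0.851, then 0.710 and 0.777, then 0.678 and 0.535, then 0.116 and 0.606. All WT shares were above all Lats1-CKO shares, though the lowest WT library (BM2) and the highest Lats1-CKO library (BM3) were close. BM3 rested on a single peak. The peak numbers themselves overlapped, with 5 in BM7 and 6 in BM8 against 5, 5 and 4 in BM5, BM2 and BM6. BM7 and BM8 have longer lists than every WT library, and the part of list length in the separation was not tested. The means were 0.928 ± 0.304 for WT and 0.484 ± 0.252 for Lats1-CKO (SD, n = 4 each), a difference of -0.445, with p = 0.0286 by the exact permutation test and an adjusted p of 0.772 by Benjamini-Hochberg over all genes. Without BM3 the difference was -0.509, p = 0.0571 by the exact test, and the groups stayed separate. The groups overlapped when only 5 kb either side of each TSS was used (difference -0.275) and when peak bases were used in place of peak numbers (-0.401). With the list of each library limited to its 10000 top-scoring peaks, the difference was 0, on the very few peaks this setting keeps. Of the 12 Prlr regions, 5 had a peak in at least 1 WT library and in no Lats1-CKO library, against 16.5% of all merged regions, and 1 had the reverse, against 39.2%. Each of those 5 regions had a peak in only 1 or 2 libraries, and the reverse region in 1. The intronic region 15236 bases after the gene start (chr15:10192293-10192657), shown above, had percentiles of 94.4 and 81.8 in WT luminal, 91.9 and 34.7 in WT basal-like, 62.9 and 89.7 in Lats1-CKO luminal and 29.2 in BM8, with no peak in BM4. It was thus present in both genotypes, and the 2 lowest values among libraries with a peak were both in basal-like cells. A region 71198 bases after the start (chr15:10248298-10248574) was at percentile 85.9 in BM1 and at 29.3, 10.3, 43.3 and 1.83 in BM2, BM6, BM7 and BM8.

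Esr1 itself had 12 peaks in each WT luminal library, 7 and 5 in WT basal-like, 0 and 7 in Lats1-CKO luminal and 21 and 10 in Lats1-CKO basal-like. Its peak share was 1.65 and 2.04, then 0.994 and 0.971, then 0 and 0.749, then 2.43 and 1.01. WT luminal lay above WT basal-like, and Lats1-CKO basal-like above Lats1-CKO luminal, so that the populations were ordered in opposite ways in the 2 genotypes. Neither difference within a genotype was tested. Over 4 and 4 libraries the genotype difference was -0.366 (p = 0.571, exact permutation test) and the population difference 0.242 (p = 0.771, exact permutation test). The genotype difference was -0.0167 without BM3 and -0.828 without BM4, and the population difference -0.128 and -0.119.

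The Esr1 regions were then compared one by one. In 4 of the 37 regions both WT luminal libraries and neither WT basal-like library had a peak, against 1.17% of all merged regions; over the 8 genes these were the only 4. Counted in bases from the gene start, they lay at -13142, -11778, 170721 and 382606. In that order their percentiles in BM1 and BM5 were 30.8 and 37.8, 15.4 and 58.4, 15.4 and 28.5, and 15.4 and 28.5. The region at -13142 also had a peak in BM8 (8.57), and that at 382606 in BM4 (10.3). The reverse, both WT basal-like and neither WT luminal library, was seen in 1 Esr1 region, 164107 bases after the start, and in 1 Xbp1 region, against 1.03% of all. The Esr1 region at -1120 bases from the start (chr10:4610407-4610539) had percentiles of 30.8 and 34.7 in WT luminal and 8.45 in BM2, and no peak in BM6 or in any Lats1-CKO library. Its score was low where it was present. The intronic region 9570 bases after the start (chr10:4620888-4621438) was the one Esr1 region with a peak in all libraries but BM3. Its percentiles were 74.9 and 66.0 in WT luminal, 83.1 and 89.7 in WT basal-like, 61.2 in BM7, and 91.7 and 49.2 in Lats1-CKO basal-like. A further intronic region 372553 bases after the start had a peak in BM1, both WT basal-like and both Lats1-CKO basal-like libraries, at percentiles of 42.4, 59.3, 22.5, 79.9 and 65.4. Near the first TSSs, a region 826 bases after the gene start had a peak in BM1, BM5, BM2 and BM4, at 6.57, 82.7, 29.3 and 69.4. The values of BM1, BM7 and BM8 given above for the start sites came from a region over an internal TSS, 101072 bases into the gene. Of the 37 regions, 9 (24.3%) were seen in WT and not in Lats1-CKO libraries, against 16.5% of all regions, and 17 (45.9%) the other way round, against 39.2%. Of those 17, 11 were seen in BM4 alone, a pattern held by 11% of all regions and by 15 of the 101, while 2 were seen in both BM4 and BM8 and no WT library, against 3.48% of all.

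**Figure D3:**
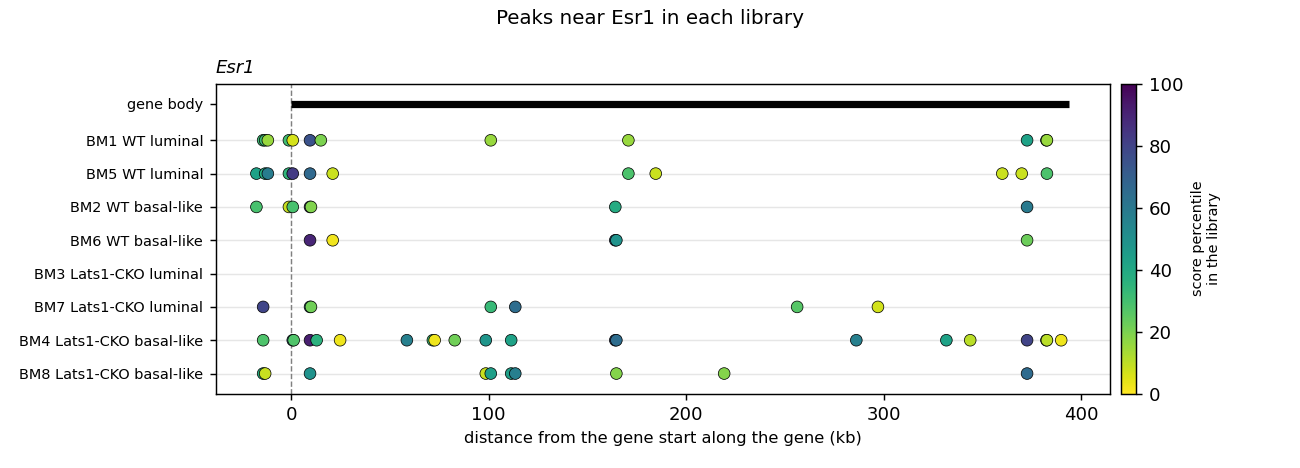
Position of each Esr1 region along the gene (horizontal axis, kb from the gene start, the bar at the top being the gene body) in each library (rows), coloured by the score percentile of its peak in that library. The region near 10 kb has a peak in every library but BM3, and BM4 holds 21 peaks along the gene.

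Greb1, a cofactor of the estrogen receptor and a classical estrogen-induced gene, had 8 and 5 peaks in WT luminal, 8 and 4 in WT basal-like, 0 and 14 in Lats1-CKO luminal and 12 and 13 in Lats1-CKO basal-like. Its peak share was 1.10 and 0.851, then 1.14 and 0.777, then 0 and 1.50, then 1.39 and 1.31. Apart from BM3, each Lats1-CKO library was above each WT library. With all 8 libraries the difference was 0.0845 (means 1.05 ± 0.704 and 0.966 ± 0.179, SD, n = 4 each), p = 0.886 by the exact permutation test. Without BM3 it was 0.435 and p = 0.0286, the smallest the exact test gives. That made 1 of the 8 genes separate with Lats1-CKO higher, against 3.94% of all genes, and 1 (Prlr) with Lats1-CKO lower, against 7.75%. Without BM3 the populations were separate for none of the 8, against 2.41% of all genes with basal-like higher and 1.83% lower. The 0 peaks of BM3 near Greb1 allowed a share of up to 2.03, which is above every other library's value. Measured in peak bases, the Greb1 difference over all libraries was -0.0175.

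The Greb1 regions with a peak in 6 or 7 libraries were all intronic. The region 21654 bases after the gene start (chr12:16779011-16779455) had percentiles of 49.0 and 20.4 in WT luminal, 78.5 and 80.3 in WT basal-like, 67.4 in BM7 and 77.3 and 59.6 in Lats1-CKO basal-like. It was lower in both WT luminal libraries than in any other with a peak. The region with the response element, 10259 bases after the start (chr12:16790497-16790758), had percentiles of 89.9 in BM5, 70.4 and 42.8 in WT basal-like, 66.3 in BM7 and 66.1 and 77.5 in Lats1-CKO basal-like, and no peak in BM1. The region 12092 bases after the start was at 11.9, 18.8, 48.0 and 7.61 in the WT libraries BM1, BM5, BM2 and BM6, and at 53.5, 52.9 and 80.7 in BM7, BM4 and BM8. The region at -7381 bases (chr12:16808189-16808346) was at 43.8 in BM1 and 16.3 in BM2, and at 85.2, 71.0 and 93.3 in BM7, BM4 and BM8. These last 2 regions were picked out after their values were seen. The intronic region 4909 bases after the start had no single order by genotype. It was at 73.5 and 71.9 in WT luminal and 38.8 in BM2, and at 52.9, 66.9 and 67.2 in BM7, BM4 and BM8. BM6 and BM3 had no peak there. The libraries BM7, BM4 and BM8 have the longest lists, and the part of list length in these percentiles was not tested. Of the 24 regions, 12 had a peak in Lats1-CKO libraries alone, against 39.2% of all regions, and 3 in WT libraries alone, against 16.5%.

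Gata3, needed to form and keep luminal cells, had 7 and 5 peaks in WT luminal, 9 and 5 in WT basal-like, 1 and 7 in Lats1-CKO luminal and 8 and 6 in Lats1-CKO basal-like. Its peak share was 0.963 and 0.851, then 1.28 and 0.971, then 0.678 and 0.749, then 0.927 and 0.606. The highest Lats1-CKO library, BM4, was above the lowest WT library, BM5, and the difference of -0.276 did not pass (p = 0.0571, exact permutation test; adjusted p = 0.915, Benjamini-Hochberg over all genes). With the 10000 top-scoring peaks, which left 3 to 5 peaks a library over all 8 genes, it was 0.25, in the other direction. The basal-like libraries were then all above the luminal ones (difference 1.25, p = 0.0286, exact test, unadjusted), which with all peaks they were not (0.135). The share of all genes separate among the top-scoring peaks was not counted. As counted above, 4 regions had a peak in every library but, for 3 of them, BM3. An intronic one 10294 bases after the start (chr2:9879570-9879912) was in all 8, at 96.3, 79.4, 95.5 and 84.1 in the WT libraries BM1, BM5, BM2 and BM6 and at 69.4, 97.5, 97.0 and 94.6 in BM3, BM7, BM4 and BM8. The region shown above (chr2:9860807-9861087) was at 78.8, 89.7, 91.3 and 83.2 in the same WT libraries and at 87.1, 97.3 and 95.1 in BM7, BM4 and BM8. The region over a TSS (chr2:9878407-9878794) was at 54.0 in BM5 and between 74.6 and 82.9 in BM1, BM2, BM6, BM7, BM4 and BM8. Gata3 thus had strong peaks in both populations and both genotypes. In all, 2 of its 11 regions were seen in Lats1-CKO libraries alone, against 39.2% of all regions, and 0 in WT libraries alone, against 16.5%.

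**Figure D4:**
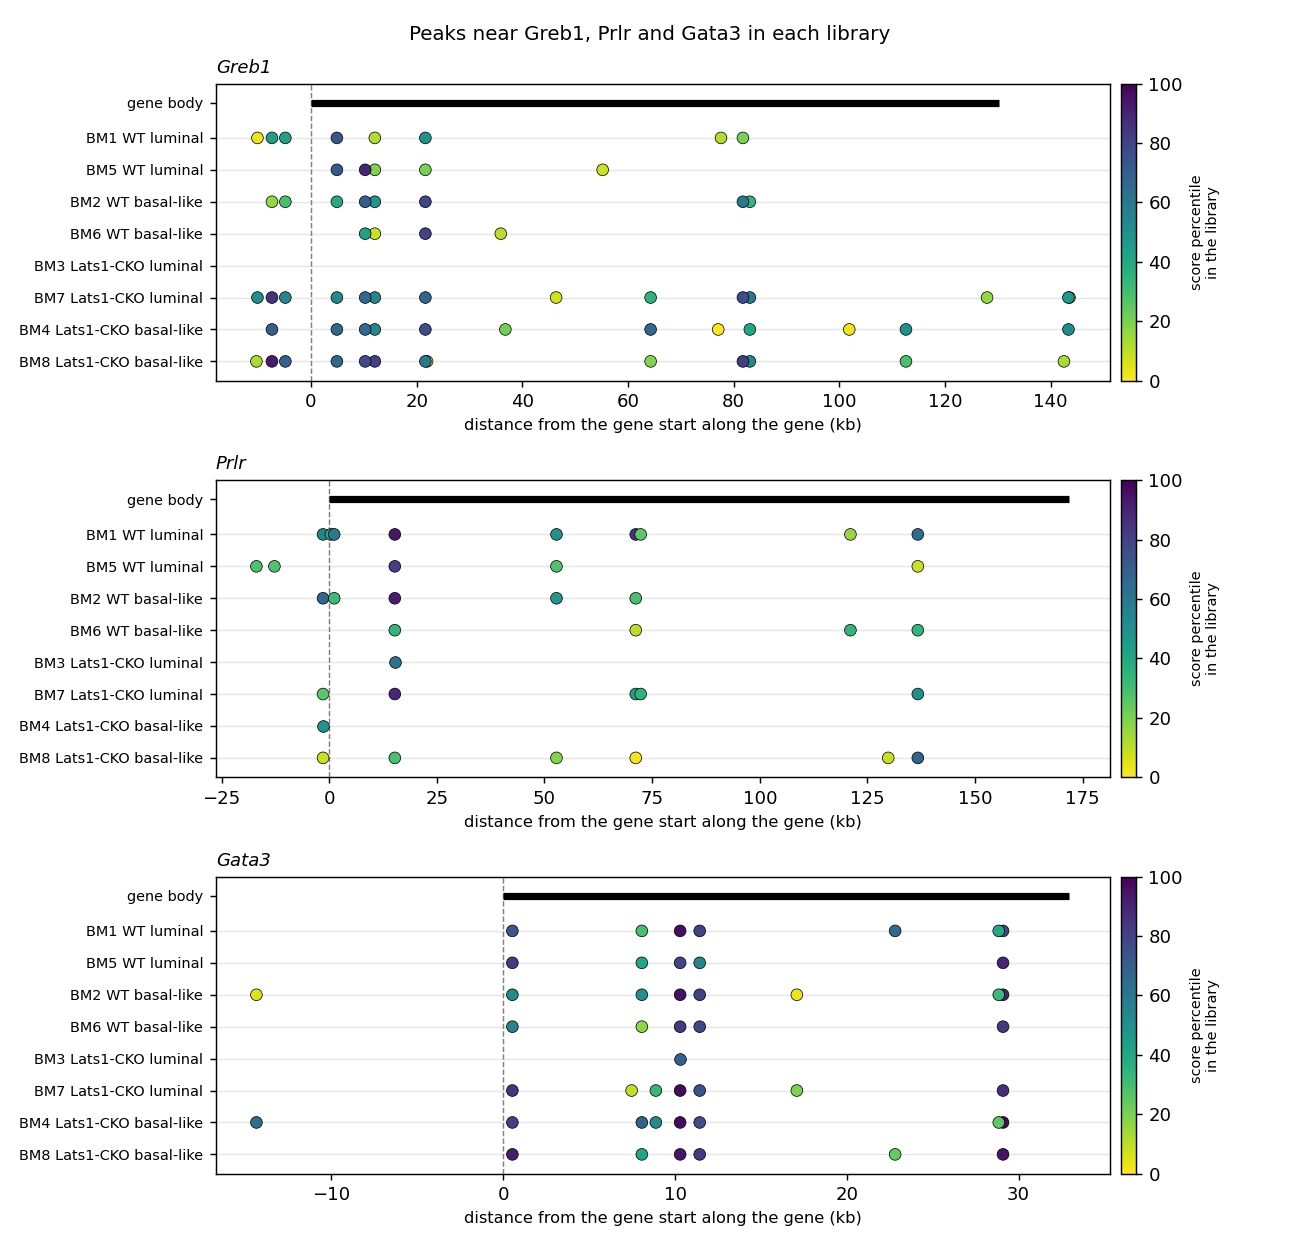
Position of each region of Greb1, Prlr and Gata3 along the gene (horizontal axes, kb from the gene start) in each library (rows), coloured by the score percentile of its peak in that library. Gata3 peaks line up across libraries, while BM4 has 1 peak near Prlr and BM3 has none near Greb1.

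Xbp1 had 4 and 2 peaks in WT luminal, 4 and 5 in WT basal-like, 2 and 7 in Lats1-CKO luminal and 5 and 5 in Lats1-CKO basal-like. Its peak share was 0.550 and 0.340, then 0.568 and 0.971, then 1.36 and 0.749, then 0.580 and 0.505. WT basal-like lay above WT luminal and Lats1-CKO basal-like below Lats1-CKO luminal, with the highest value in BM3 resting on 2 peaks. BM1 and BM2 had 4 peaks each, so their order follows only the list lengths. The genotype difference was 0.190 (p = 0.514, exact permutation test), and 0.00380 without BM3. Measured in peak bases, all Lats1-CKO libraries were above all WT libraries (difference 0.243, p = 0.0286, exact test, unadjusted). The share of all genes separate in peak bases was not counted. Besides its start-site region (chr11:5520644-5521016), a region at -10717 bases was at percentile 5.68 in BM6 and at 72.0, 47.3 and 83.4 in BM7, BM4 and BM8, with no peak in the other WT libraries or in BM3.

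The remaining genes had few peaks. Pgr, which encodes the progesterone receptor, had 1 and 0 peaks in WT luminal, 1 and 1 in WT basal-like, 0 and 2 in Lats1-CKO luminal and 1 and 2 in Lats1-CKO basal-like. Its main region was intronic, 64878 bases after the start (chr9:8964651-8964771), at percentiles of 25.3 in BM1, 46.7 in BM2, 71.3 in BM7, 42.5 in BM4 and 78.7 in BM8. Foxa1 had 2 and 1 peaks in WT luminal, 2 and 0 in WT basal-like, 0 and 1 in Lats1-CKO luminal and 1 and 0 in Lats1-CKO basal-like. Its strongest region, 183 bases inside the gene (chr12:57546646-57546821), was in both WT luminal libraries, BM2 and BM7, and in neither Lats1-CKO basal-like library. Cited1 had 1 and 0, 1 and 0, 0 and 1, and 1 and 1 peaks in the same order. By genotype the differences were 0.0145 for Pgr (p = 0.886), -0.127 for Foxa1 (p = 0.171) and 0.0111 for Cited1 (p = 1), all by exact permutation tests. All 3 rest on 0 to 2 peaks a library. Without BM6, which had no Foxa1 peak, the Foxa1 difference was -0.187, with p = 0.0286 by the exact test and unadjusted. How many of all genes reach this p without BM6 was not counted. By population the exact p-values of the 8 genes were 0.314 or more.

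Other genes of the estrogen, progesterone and prolactin pathways and of hormone-sensing cells were listed as 33 genes, chosen with earlier results known. All 33 were in the annotation, and 31 had a peak. None was separate by genotype or by population with all 8 libraries, and none passed an adjusted p of 0.05. The median difference of the list was -0.0329 by genotype and 0.00737 by population, against the 0.0236 and -0.0242 over all genes, both of which change sign without BM3. Without BM3, Ncoa3, a steroid receptor coactivator, and Agr2, a secretory-pathway protein induced by estrogen, were separate with Lats1-CKO higher. These were 2 of 31, beside 3.94% of all genes, and 1 gene was separate with Lats1-CKO lower, beside 7.75%, and 1 with basal-like lower, beside 1.83%. The list thus lay near the background. Ncoa3 had a peak share of 0.688 and 0.510 in WT luminal, 0.568 and 0.777 in WT basal-like, 0.856 in BM7 and 1.16 and 1.31 in Lats1-CKO basal-like, with 0.678 in BM3. Agr2 had 0.138 and 0.170, then 0.142 and 0, then 0.321 in BM7 and 0.232 and 0.404 in Lats1-CKO basal-like, with 0 in BM3. Pgrmc1, a heme-binding membrane protein named for progesterone, was separate with Lats1-CKO lower, on 2 peaks in every library, so that its share followed only the number of peaks of the library. Esr2, the gene of estrogen receptor β, was separate with basal-like lower without BM3, at 0.550, 0.680 and 0.642 in BM1, BM5 and BM7 against 0.284, 0.388, 0.464 and 0.505 in BM2, BM6, BM4 and BM8.

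The pattern over the 8 libraries was compared between genes by Pearson's r of log2(peak share + 1), among genes on other chromosomes with at least as many peaks. The 2 genes most like Esr1 were Erc2 (r = 0.958) and Thsd7b (r = 0.956). Greb1 was most like Ncald (0.984) and Crim1 (0.980), and Prlr most like Spon1 (0.912) and Crebl2 (0.886). Gata3 was most like Edem1 (0.917) and Slco2a1 (0.902), and Xbp1 most like Gstt3 (0.994) and Gm20441 (0.986). For Foxa1 (Trpv5 and Trim15, 0.946), Pgr (Gm10306 and Ctrb1, 1) and Cited1 (Rspo4 and Gm8298, 1) the low peak numbers leave many ties. All values share the same 8 libraries and their peak totals, and between 976 and 16993 genes were compared for each, so a high r describes the pattern and is no test.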

How the data were processed

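The authors' methods describe trimming with cutadapt, unique alignment to mm10 with bowtie (1.0.0 per the labels), removal of mitochondrial and duplicate reads (Picard 2.3.0) and of fragments longer than 120, peak calling with MACS2 and removal of blacklisted peaks. The MACS2 version was 2.1.1.20160309 per the submitters' processing notes, while the methods text names another. The deposited peak score of each library is the caller's own, with a minimum of 13 in every list, is not normalized between libraries, and rests on a depth the lists do not hold. It was therefore used as a percentile within the library. The study compared read counts over peaks, which these lists do not contain, and it dropped 1 Lats1-CKO luminal library for quality when pooling reads. The sources used here do not name that library. BM3 has the fewest peaks of all and was kept, with values given without it where they change.

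Peaks, neighbourhoods and merged regions (at least 1 bp of overlap) were computed with Python 3.11.15, pandas 2.3.3, numpy 2.4.6 and pysam 0.24.0, with GENCODE M21 genes and RefSeq GRCm38.p6 sequence. The 8 genes matched 14 promoters of the RefSeq table by symbol. Exact permutation tests ran over all genes with Benjamini-Hochberg adjustment and were tested on simulated data. Nothing says that the libraries of a group come from separate animals, so p-values measure the spread between these libraries. The genes and lists were chosen with earlier results of these data known. Genes named are the 8 members, listed pathway genes whose 4 and 4 libraries do not overlap (none), the 2 genes most alike in pattern, and genes with a TSS within 1 kb of a region described. Ncoa3, Agr2, Pgrmc1 and Esr2 were named outside that rule, after their values without BM3 were seen. Alternatives were the 10000 highest-scoring peaks, most of a peak inside, 5 kb around TSSs, peak bases, removal of peaks at other genes' TSSs, each library left out, and other windows and mismatch limits for motifs.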

Additional observations from a re-analysis of the deposited data

Results flagged for a closer look

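An outlier test was run on the peak shares of the 8 genes in each set of 4 libraries (by genotype and by population), 32 sets in all, and 4 sets held a library whose gap to the next exceeded Dixon's 95% critical value as a share of the range. For independent normal values, chance gives this in about 1 in 20 sets. These sets share libraries and rest on small counts, so that rate may not hold here. The share of all genes flagged in this way was not counted. Esr1 had 2.43 peaks per 10000 in BM4, against 0.971 to 1.01 in the other basal-like libraries, and BM4 also had the highest summed share of the fibroblast markers (5.22 against 2.03 to 3.30), whose part was not tested. Xbp1 had 0.971 in BM6, against 0.505 to 0.580 in the other basal-like libraries. BM3 was at 0 among the Lats1-CKO libraries for Greb1 (1.31 to 1.50 in the others) and for Cited1 (0.101 to 0.116). The Cited1 values rest on 1 peak in each of BM7, BM4 and BM8, so that the gap follows the list lengths. In BM3, 0 peaks of 14753 allow a share of up to 2.03.

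In 3 cases the effect of one factor went opposite ways in both levels of the other, in every library. The 2 Esr1 cases are the same crossing, read by genotype and by population. The share of all genes with such a crossing was not counted. The Esr1 share was lower in Lats1-CKO than in WT luminal libraries, by a mean difference of -1.47, and higher in Lats1-CKO than in WT basal-like libraries. Equally, it was lower in WT basal-like than in WT luminal libraries (-0.864) and higher in the Lats1-CKO pair. The Xbp1 share was higher in WT basal-like than in WT luminal libraries, by 0.324, and lower in the Lats1-CKO pair. BM1 and BM2 each had 4 Xbp1 peaks, so their order (0.550 and 0.568) follows only the list lengths. These differences between groups of 2 libraries were not tested, and the luminal Lats1-CKO value rests in part on BM3. The 0 Esr1 peaks of BM3 allow a share of up to 2.03, above the 1.65 of the WT luminal library BM1.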

How the results depend on the processing

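No paired analysis was made, because the labels do not say which libraries of different groups belong together. The library numbers run through the groups in the same order, BM1 to BM4 and then BM5 to BM8. Whether these were separate sets is not stated. With all 8 genes together, the Lats1-CKO minus WT difference of -0.913 became 0.25 among the 10000 highest-scoring peaks. It ran from -1.38 to -0.353 as each library was left out. The highest-scoring peaks left only 3 to 5 peaks a library near the 8 genes, so all values from that setting rest on very few peaks. The basal-like minus luminal difference of 0.334 ran from -0.321 to 0.838, and was -0.186 with 5 kb around TSSs and 0.75 with the highest-scoring peaks. Among single genes the Lats1-CKO minus WT difference changed sign for Gata3 with the highest-scoring peaks (0.25), for Pgr (-0.0218) and Cited1 (-0.0179) with 5 kb around TSSs, and for Greb1 with peak bases (-0.0175). The basal-like minus luminal difference changed sign for Esr1 (-0.00659) and Cited1 (-0.000407) with 5 kb, and for Gata3 (-0.0563) and Xbp1 (0.0645) with peak bases. Leaving out each library in turn, the genotype difference ran from -0.0249 to 0.0589 for Pgr, from -0.0122 to 0.0381 for Cited1 and from -0.0647 to 0.435 for Greb1, and the population difference from -0.0994 to 0.00758 for Foxa1, from -0.128 to 0.552 for Esr1 and from -0.229 to 0.109 for Xbp1. The Esr1 genotype difference ran from -0.828 to -0.0167, and that of Foxa1 from -0.187 (without BM6, exact p = 0.0286) to -0.0927. For Prlr it ran from -0.517 to -0.295, with exact p-values of 0.0286 to 0.0857. Populations that overlapped became separate for Gata3 with the highest-scoring peaks (1.25), and genotypes for Xbp1 with peak bases (0.243). Over all genes, the share that became separate under these settings was not counted. The cause of these changes was not tested. Counting a peak only with 50% or more of its length inside changed no sign. Matches to the estrogen response element were in 3.96% of the regions near the 8 genes with 300 or 400 bp and in 1.98% with the whole region. Over all merged regions these shares were 1.12% with 300 bp, 1.43% with 400 bp and 0.808% with the whole region. The whole region left FOXA at 0.990%, against 2.86% of all merged regions, and GATA at 3.96%, against 4.13%. Depth per library is unknown, and its part in missing peaks was not tested.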
